A study of Mus musculus with 27 samples.

Results

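*Wt1*, *Lhx9*, *Emx2*, *Tcf21*, *Six4*, *Gadd45g* and *Map3k4*, genes that mouse genetics places in the formation of the genital ridge or in its switch toward testis, were followed through an in vitro route from embryonic stem cells (ESC) to Sertoli-like cells. The 7 genes were chosen by name, matched by symbol to the Ensembl gene identifiers of the tables, and are 7 of 48795 genes listed. All 7 passed the filter on low counts, as did 20839 genes in total. Bulk RNA-seq covered 9 groups of 3 libraries each, all from 1 XY clone of the strain F1:C57BL/6 x CBA carrying the Tesco-CFP reporter and the R26-rtTA allele. ESC were taken to the EpiSC stage in 60 h with 12 ng/ml bFGF, 20 ng/ml Activin A and 1% knockout serum replacement, and to mesoderm (M) in 36 h with 20 ng/ml bFGF, 10 ng/ml BMP4 and 10 µM LY294002, a phosphatidylinositol 3-kinase inhibitor. M cells then entered 1 of 5 intermediate mesoderm media, IM1 to IM5, which shared 5 ng/ml bFGF and 20 ng/ml BMP4. IM1 held nothing else, IM3 added 100 nM retinoic acid, IM2 added retinoic acid and 10 ng/ml Activin A, IM4 added retinoic acid and 0.3 µM CHIR99021, a GSK3 inhibitor, and IM5 added all of these. Induced Sertoli-like cells (iSLC) were IM3 cells given lentiviral, doxycycline-induced *Nr5a1* and *Dmrt1*, moved to another medium and sorted for CFP, so virus, medium, time and sort cannot be told apart in any comparison with IM3.

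The genital ridge forms as a thickening of the coelomic epithelium over the mesonephros. WT1, a zinc finger protein, and LHX9 and EMX2, homeodomain proteins, are each needed for the ridge to form or persist, and WT1 and LHX9 are known activators of *Nr5a1*. TCF21, a basic helix-loop-helix protein also called POD1, is known to hold *Nr5a1* back, and SIX4, a homeodomain protein, acts upstream of *Nr5a1* and *Sry*. GADD45G binds the kinase MAP3K4 and starts the p38 cascade that is needed for timely *Sry* expression. Several of the genes have other known sites of expression, such as kidney, epicardium and forebrain.

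Total expected counts were 35923040 to 84876603 per library. The libraries differed in ways that followed groups: summed red blood cell transcripts were 3.895 to 27.14 CPM (counts scaled to a common library total) in ESC, M, IM3 and IM4 and 0.3801 to 1.391 in EpiSC, IM1, IM2, IM5 and iSLC. The median deviation of GC-rich genes minus that of GC-poor genes, on the log2 scale, was -0.443 to -0.088 in IM3 and IM4 and -0.105 to 0.452 in IM1, IM2 and IM5. By red blood cell transcripts IM3 and IM4 thus lay apart from IM1, IM2 and IM5 as whole groups, while by GC the ranges overlapped slightly. In comparisons that cross from one set to the other, these traits cannot be told apart from the media. IM3 against M, IM4 against IM3 and IM5 against IM2 do not cross. In bulk RNA, fewer cells of a type and less RNA per cell cannot be told apart.

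Levels are given as TPM, transcripts scaled per length and to a common total, so that genes can be compared with each other. In IM3, *Wt1* was the most abundant of the 7 at 149 ± 14.4 TPM (SD, n = 3), followed by *Gadd45g* at 38.1 ± 2.54 TPM and *Map3k4* at 29.4 TPM. *Tcf21* stood at 19.3 ± 2.43 TPM and *Six4* at 8.50 TPM. *Emx2*, at 1.91 ± 0.48 TPM, and *Lhx9*, at 1.84 ± 0.432 TPM, were the least abundant. The ratio of the highest to the lowest group mean was 61.5 for *Wt1*, 19.7 for *Lhx9*, 30.3 for *Emx2*, 10.1 for *Six4*, 18.7 for *Gadd45g* and 2.09 for *Map3k4*. For *Tcf21*, whose ESC and EpiSC libraries held at most 3 counts, no ratio to the lowest group is given.

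**Figure D1:**
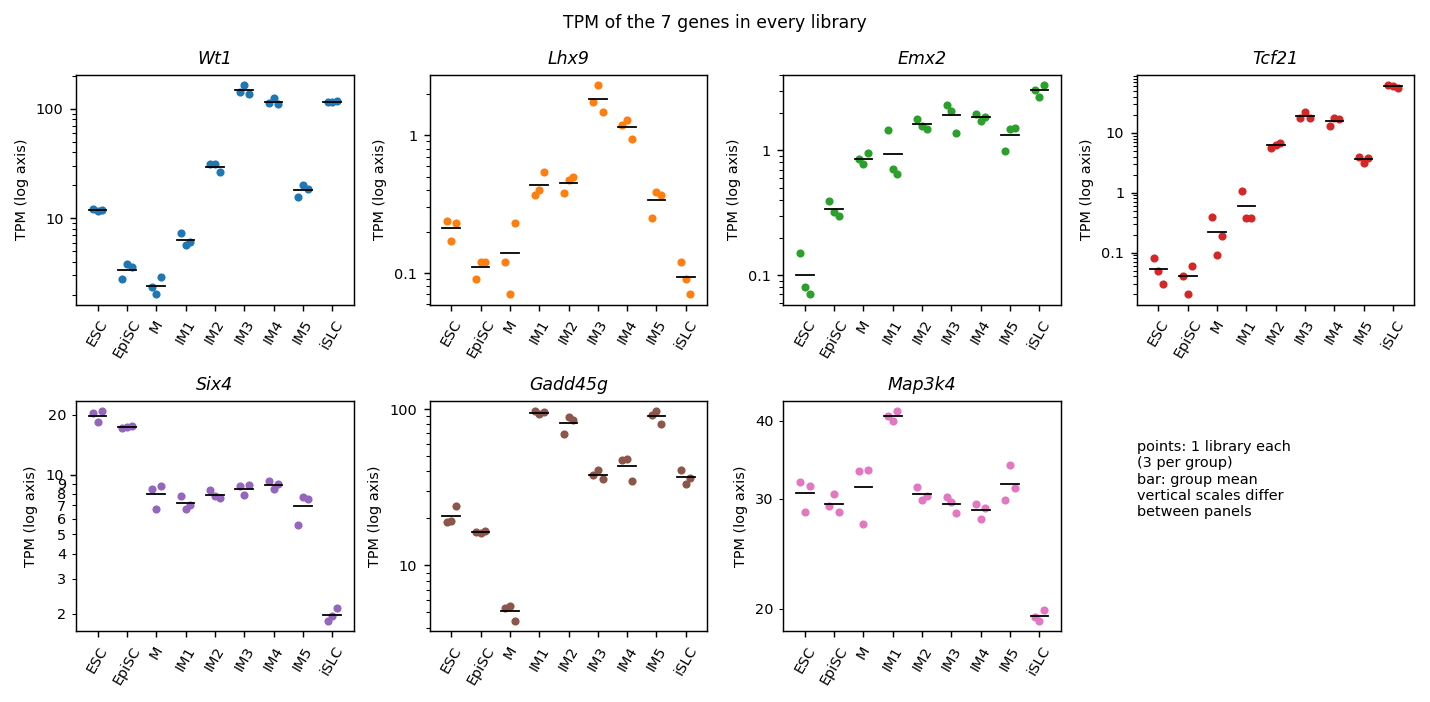
TPM (log axis, different range in each panel) of the 7 genes in every library of the 9 groups, with points for libraries and bars for group means. *Wt1*, *Tcf21* and *Lhx9* are higher in IM3 and IM4 than in the other IM groups, *Gadd45g* is highest in IM1, IM2 and IM5, and *Map3k4* lies between 19.13 and 41.38 TPM throughout.

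Differences between groups were tested with edgeR on the expected counts. Differentially expressed (DE) genes had to pass 3 limits: adjusted p no higher than 0.01, a change of 2-fold or more, and 100 or more normalized reads, both averaged over the 27 libraries and averaged in 1 or both of the groups compared. The normalized read count is the count scaled to a common library size. *Lhx9* averaged 61.3 normalized reads over the 27 libraries and so could not be called DE whatever its fold, and *Emx2* averaged 103.5, just over the minimum. Within each group the 3 libraries are numbered samples. The p-values rest on the spread within groups, estimated in 1 model over all 9 groups. With 1 clone they cover no differences between clones.

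*Wt1* (ENSMUSG00000016458, GRCm38, chromosome 2, 105126529 to 105173616, + strand) fell from ESC to EpiSC and rose in the IM stage. Its TPM was 12.06, 11.68 and 11.86 in ESC, 2.76, 3.82 and 3.58 in EpiSC, and 2.34, 2.01 and 2.91 in M. It reached 7.37, 5.74 and 6.05 in IM1, 31.14, 31.37 and 26.56 in IM2, and 15.63, 20.0 and 18.69 in IM5. IM3 held 143.44, 165.1 and 137.75, IM4 112.44, 126.33 and 110.25, and iSLC 115.25, 115.25 and 118.03. The IM3 and IM4 libraries lay above all those of IM1, IM2 and IM5, and IM2 lay between them and IM1 with no overlap on either side.

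The gene-level value adds up several *Wt1* transcripts, and these files do not separate them. A well-known difference among them is a short in-frame stretch at the end of an exon in the linker of the last zinc fingers, where use of a later splice donor adds lysine, threonine and serine (the KTS insert) and changes DNA binding. Of the 8 *Wt1* transcripts in the annotation, 4 carry the 9 added bases (chromosome 2, 105170010 to 105170018), 2 lack them and 2 do not cover the site. The sequence is shown, with the added bases in capitals, because the *Wt1* values below sum over both forms.
With the insert: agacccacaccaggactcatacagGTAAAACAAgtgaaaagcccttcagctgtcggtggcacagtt
Without the insert: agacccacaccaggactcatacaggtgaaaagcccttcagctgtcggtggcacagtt
The abundance-weighted *Wt1* transcript length was 1968 to 2371 bases over the 27 libraries. These 9 bases are too few for that length to show which form prevailed.

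*Wt1* fell by 1.66 on the log2 scale in EpiSC against ESC (SE 0.112, adjusted p = 1.35e-12) and was the only one of the 7 genes called DE, beside 8.07% of all genes tested. *Lhx9* had a log2 change of -0.90 there (adjusted p = 0.0084), which passed the p threshold in some settings only. In M against EpiSC 2 of the 7 were DE, *Gadd45g* and *Six4*, both lower, beside 14.5% of all genes. *Wt1* fell by 0.75 there (adjusted p = 2.42e-05), less than 2-fold. *Emx2* was higher at each of these steps by 1.76 and 1.21 (adjusted p = 1.77e-05 and 1.38e-05), but from 5 to 39 counts per library in ESC and EpiSC, under the read minimum.

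Among the comparisons run, IM3 against M held the largest change of *Wt1*. In IM1 against M, which differ in bFGF and BMP4 doses, in LY294002 (present in M only) and in time, with no retinoic acid in either, *Wt1* rose 2.59-fold (adjusted p = 3.57e-10) and *Gadd45g* 17.7-fold, and these were the DE genes, 2 of 7 beside 15.7% of all genes. *Lhx9* was 4.37-fold higher in IM1 (log2 change 2.13, adjusted p = 1.38e-07), below the read minimum. In IM3 against M 4 of the 7 were DE, all higher, beside 14.9% of all genes. They were *Wt1* with a log2 change of 5.78 (SE 0.121), *Tcf21* with 6.22 (SE 0.279), *Gadd45g* with 2.72 (SE 0.147) and *Emx2* with 1.02 (SE 0.186). *Lhx9* was 17.8-fold higher (adjusted p = 1.2e-13), from 5 to 16 counts in M to 118 to 192 in IM3, and with an offset for gene length its log2 change was 3.56 in place of 4.16. The call for *Emx2* sat on the 2-fold line and was lost with an offset for gene length (0.96), with an offset for GC trend (0.97), and without IM3 replicate 2 (0.91), IM3 replicate 1 (0.97) or M replicate 2 (0.95). It was also lost, at 1.05, when the libraries of IM3 and M alone were fitted, where its mean normalized read count is set by those 2 groups. Without M replicate 1, the *Tcf21* change in this comparison was 6.88.

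Retinoic acid is the declared difference between IM3 and IM1. *Wt1* was 21.2-fold higher in IM3 (log2 change 4.41, SE 0.106, adjusted p = 3.26e-21). *Tcf21* (ENSMUSG00000045680, chromosome 10, 22817281 to 22820174, - strand) moved more: its TPM was 1.06, 0.38 and 0.38 in IM1 and 17.79, 22.05 and 17.9 in IM3, a 30.1-fold difference (log2 change 4.91, SE 0.227, adjusted p = 9.93e-16). IM1 replicate 1 was the highest of the IM1 libraries for *Tcf21*, and without it the log2 change was 5.55. *Lhx9* (ENSMUSG00000019230, chromosome 1, 138825186 to 138848577, - strand) held 0.37, 0.40 and 0.54 TPM in IM1 and 1.75, 2.31 and 1.46 in IM3, and was 4.08-fold higher (adjusted p = 7.41e-09) below the read minimum. *Gadd45g* went the other way, with a log2 change of -1.43 (SE 0.118, adjusted p = 1.12e-10). With *Wt1* and *Tcf21* higher and *Gadd45g* lower, 3 of the 7 were DE beside 6.34% of all genes.

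*Emx2* (ENSMUSG00000043969, chromosome 19, 59458372 to 59465357, + strand) was 1.85-fold higher in IM3 than in IM1 (adjusted p = 0.000158), under the 2-fold line. Its 3 IM1 libraries were uneven, at 1.46, 0.71 and 0.65 TPM, and IM3 held 2.31, 2.05 and 1.38, so that the groups overlapped. The call depended on single libraries: without IM1 replicate 1 the log2 change was 1.11 and without IM3 replicate 3 it was 1.03, both then DE. Part of the *Emx2* unevenness in TPM came with transcript length, whose abundance-weighted value was 1989 bases in IM1 replicate 1 and 2916 in IM1 replicate 3. In addition, 8.8% of its exonic bases overlap *Emx2os* on the opposite strand, and the strand setting of the counting is not given in the sources used here.

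**Figure D2:**
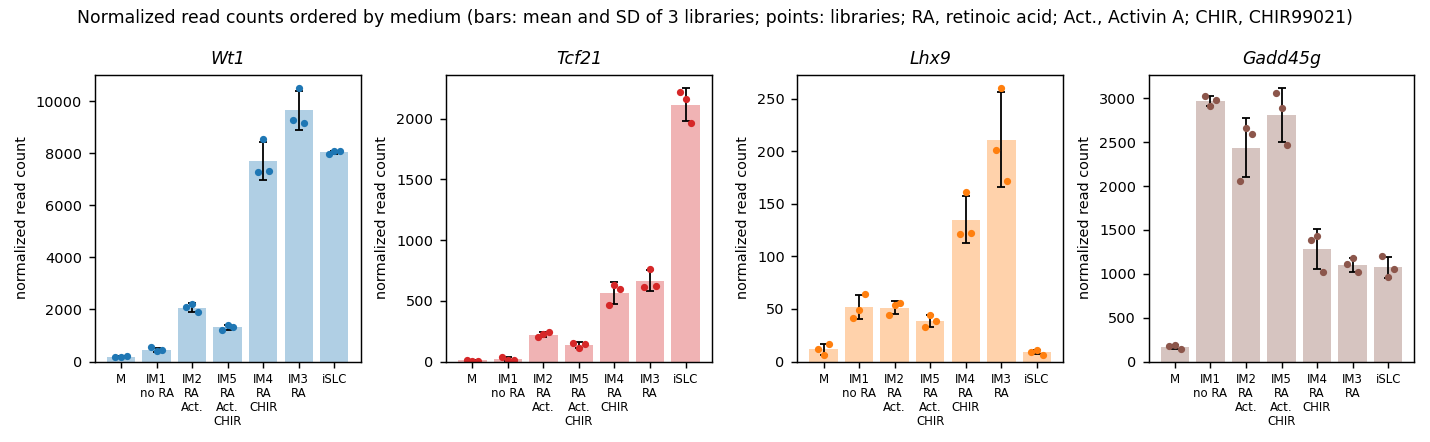
Normalized read counts of *Wt1*, *Tcf21*, *Lhx9* and *Gadd45g* (linear axes from 0) in M, the 5 IM media and iSLC, with bars for the mean and SD of 3 libraries and points for libraries. In IM4 and IM3 the first 3 genes are above IM1, IM2 and IM5 and *Gadd45g* is below them.

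Activin A was added to the retinoic acid medium in IM2, and to the medium with retinoic acid and CHIR99021 in IM5. These comparisons, IM2 against IM3 and IM5 against IM4, use different libraries. In IM2 against IM3 *Wt1* was 4.67-fold lower (adjusted p = 1.24e-15), *Tcf21* 3.00-fold lower (adjusted p = 3.21e-08) and *Gadd45g* 2.21-fold higher (adjusted p = 1.5e-08). In IM5 against IM4 *Wt1* was 5.86-fold lower (adjusted p = 6.5e-17), *Tcf21* 4.15-fold lower (adjusted p = 5.56e-10) and *Gadd45g* 2.20-fold higher (adjusted p = 1.01e-08). These are 3 of 7 genes in each, beside 3.8% and 4.09% of all genes. With an offset for the GC trend of the libraries, *Gadd45g* was under 2-fold in both, at log2 changes of 0.84 and 0.74, which leaves 2 of 7 in each. *Lhx9* fell by 2.04 on the log2 scale in the first and by 1.81 in the second (adjusted p = 1.8e-08 and 1.72e-07), below the read minimum. Its TPM was 0.38, 0.47 and 0.50 in IM2 and 0.25, 0.39 and 0.37 in IM5, against 1.19, 1.28 and 0.94 in IM4, with no overlap.

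The levels of IM2 did not return to those of IM1 for *Wt1* and *Tcf21*. *Tcf21* held 5.63, 6.29 and 6.67 TPM in IM2 and 3.93, 3.09 and 3.86 in IM5, all above the 3 IM1 libraries. *Lhx9* in IM2 overlapped IM1. Both lay between 0.3801 and 1.391 CPM of red blood cell transcripts, and they differ in retinoic acid and Activin A together. No test was run between them.

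*Emx2*, *Six4* and *Map3k4* were within 2-fold in both Activin A comparisons. For *Emx2* the log2 changes were -0.20 (2 SE on each side from -0.55 to 0.15, adjusted p = 0.38) and -0.40 (from -0.75 to -0.06, adjusted p = 0.0574). *Six4* was 0.32 lower in IM5 than in IM4 (adjusted p = 0.00126) and *Map3k4* 0.18 higher (adjusted p = 0.00086), small changes that passed the p threshold but did not with the GC offset (-0.20 and 0.08, adjusted p = 0.0146 and 0.229).

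CHIR99021 is the declared difference between IM4 and IM3 and between IM5 and IM2. In IM4 against IM3 none of the 7 was DE, beside 0.101% of all genes, while 2517 genes, 2 of the 7 among them, had an unadjusted p under 0.05 in the edgeR test. DESeq2 called none of the 7 either. *Wt1* was lower by 0.32 on the log2 scale (2 SE on each side from -0.50 to -0.14, adjusted p = 0.0547) and *Lhx9* by 0.64 (from -1.04 to -0.24, adjusted p = 0.11). The TPM of the IM3 and IM4 libraries did not overlap for either. Nor did it for *Tcf21*, at no less than 17.79 in IM3 and no more than 17.58 in IM4. How many of all genes would not overlap was not counted. *Emx2*, *Tcf21*, *Six4*, *Gadd45g* and *Map3k4* had log2 changes between -0.24 and 0.21, each with an adjusted p of at least 0.52. In IM5 against IM2 none was DE either by edgeR or by DESeq2, beside 0.235% of all genes. In the edgeR test 4586 genes, 3 of the 7 among them, had an unadjusted p under 0.05. *Wt1* fell there by 0.65 (adjusted p = 4.01e-05), less than 2-fold. Whether the Activin A difference changes with CHIR99021 was tested as an interaction: none of the 7 was DE by either tool, beside 0.0336% of all genes, with 2191 genes, 2 of the 7 among them, at an unadjusted p under 0.05 in the edgeR test. The interaction was -0.33 for *Wt1* (from -0.59 to -0.07, adjusted p = 0.356) and -0.47 for *Tcf21* (from -0.96 to 0.02, adjusted p = 0.511).

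**Figure D3:**
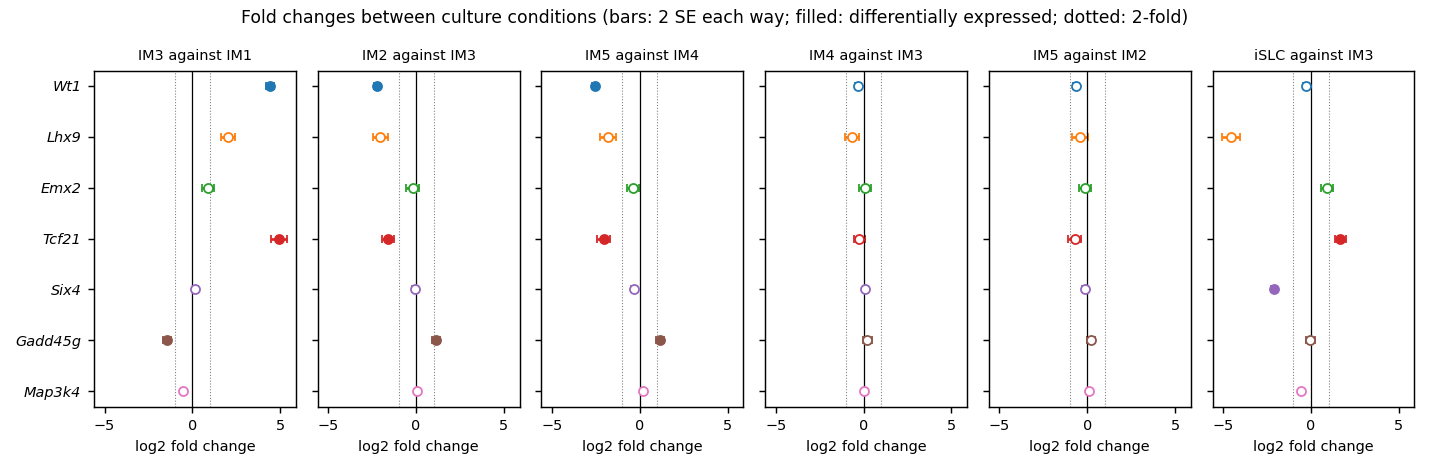
Log2 fold changes of the 7 genes in 6 comparisons of culture conditions, with bars of 2 SE on each side, filled points for DE genes and dotted lines at 2-fold. *Wt1* and *Tcf21* are positive in IM3 against IM1 and negative in IM2 against IM3 and IM5 against IM4, and *Gadd45g* has the opposite sign in these 3. The comparisons IM3 against IM1, IM2 against IM3, IM4 against IM3 and iSLC against IM3 share the IM3 libraries.

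The study sets IM3 and IM4 apart from IM1, IM2 and IM5 in part by a principal component analysis and a comparison with embryonic gonads. It also does so by their expression of genes of this kind, *Wt1*, *Tcf21* and others of the 7 among them. The values between these sets are therefore a description and no independent evidence of direction. Of the 7 genes 3 met the DE limits beside 4.21% of all genes: *Wt1* at a log2 difference of 3.01 (SE 0.0599), *Tcf21* at 2.81 (SE 0.121) and *Gadd45g* at -1.20 (SE 0.0777). *Lhx9* differed by 1.85 (SE 0.134) with too few reads for a call, *Emx2* by 0.51, *Six4* by 0.21 and *Map3k4* by -0.27.

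*Gadd45g* (ENSMUSG00000021453, chromosome 13, 51846678 to 51848468, + strand) had a course of its own. It was at 5.32, 5.48 and 4.42 TPM in M, its lowest group, and at 96.58, 92.46 and 95.45 in IM1, its highest. IM2 held 69.07, 88.68 and 85.56, IM5 92.05, 96.82 and 80.46, IM3 38.1, 40.67 and 35.6, and IM4 46.99, 47.61 and 34.67. IM1, IM2 and IM5 did not overlap IM3 and IM4. It is also the most GC-rich of the 7 genes, at 59.9% (percentile 95.3 of the genes tested), and the library trend with GC content runs along the same groups. With an offset for that trend its log2 change was 0.84 in IM2 against IM3, 0.74 in IM5 against IM4 and -0.85 in IM3/4 against IM1/2/5, in the same direction but under 2-fold. Its fall in IM3 against IM1 remained DE with that offset. The other members called between IM media stayed DE with it.

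The promoters of *Gadd45g* and *Tcf21*, which moved in opposite directions between the IM media, are shown from RefSeq (GRCm38.p6), 5′ to 3′ along the gene and before its first exon. Short motifs were searched on both strands, and those found in the printed stretch are in capitals.
Gadd45g, chr13:51846425-51846674, + strand: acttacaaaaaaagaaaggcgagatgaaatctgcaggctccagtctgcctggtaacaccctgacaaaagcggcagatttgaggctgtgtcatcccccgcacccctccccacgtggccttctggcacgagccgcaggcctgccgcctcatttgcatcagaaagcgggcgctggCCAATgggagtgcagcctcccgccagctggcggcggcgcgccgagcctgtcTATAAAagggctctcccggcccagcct
Tcf21, chr10:22820175-22820393, - strand: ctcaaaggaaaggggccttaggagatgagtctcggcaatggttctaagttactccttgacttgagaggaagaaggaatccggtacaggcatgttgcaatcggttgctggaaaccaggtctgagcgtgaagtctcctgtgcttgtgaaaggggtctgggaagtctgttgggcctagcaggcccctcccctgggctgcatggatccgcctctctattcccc
The capitals of *Gadd45g* mark a CCAAT box and a TATA box. The CCAAT box was searched as CCAAT and was held by 33.8% of 32851 windows of 250 bases before RefSeq starts. The TATA box was searched as TATAAA and was held by 12.4%. The GATA motif was searched as AGATAA and was held by 9.99%, and the *Tcf21* window has 1 such match, in the 31 of its 250 bases that are exonic and not printed. The retinoic acid receptor half-site was searched as AGGTCA and was held by 14% of all windows. The half-site was in none of the 7 windows found for *Lhx9*, *Emx2*, *Tcf21*, *Six4* (2 starts), *Gadd45g* and *Map3k4*. *Wt1* had no window in the table. A match, or none, says only which letters these windows hold.

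Between IM3 and iSLC the 7 genes parted. *Tcf21* rose 3.18-fold, from 17.79, 22.05 and 17.9 TPM to 62.77, 61.12 and 55.2 (log2 change 1.67, SE 0.158, adjusted p = 3.52e-10). *Six4* (ENSMUSG00000034460, chromosome 12, 73099609 to 73113456, - strand) fell 4.29-fold, from 8.72, 7.89 and 8.89 TPM to 1.84, 1.95 and 2.13 (adjusted p = 1e-17). These were the 2 DE genes of the 7, beside 19.2% of all genes. *Lhx9* fell 23.4-fold (adjusted p = 1.7e-14) to 0.12, 0.09 and 0.07 TPM, which is 7 to 11 counts per library, within the range of EpiSC and M together and below every ESC library. It is not counted as DE only because of the read minimum.

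*Emx2* was 1.88-fold higher in iSLC (adjusted p = 2.65e-05), at 3.04, 2.70 and 3.34 TPM, its highest group, and without IM3 replicate 2 it passed 2-fold with a log2 change of 1.03. *Map3k4* (ENSMUSG00000014426, chromosome 17, 12227621 to 12318796, - strand) fell by 0.59 on the log2 scale (adjusted p = 2.52e-12), to 19.41, 19.13 and 19.93 TPM, under every other library of the series. *Wt1* was 1.20-fold lower (adjusted p = 0.00956, and 0.083 without IM3 replicate 2) and stayed above 115 TPM. For *Gadd45g* the log2 change was -0.04 (2 SE on each side from -0.28 to 0.20, adjusted p = 0.785), and its iSLC libraries at 41.04, 32.98 and 36.13 TPM overlapped IM3. With the GC offset that change was -0.51 (adjusted p = 3.81e-06), so whether *Gadd45g* differed here depends on the correction.

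By group mean TPM *Six4* and *Map3k4* varied least among the 5 IM media. *Six4* was highest in ESC, at 20.31, 18.33 and 20.81 TPM, and in EpiSC, at 17.23, 17.42 and 17.53. It fell 2.28-fold in M against EpiSC (adjusted p = 1.99e-13) and then held 5.61 to 9.32 TPM over the M and IM libraries. *Map3k4* was highest in IM1, at 40.66, 39.86 and 41.38 TPM, and 1.46-fold lower in IM3 (adjusted p = 3.34e-11). It passed the p threshold in 6 of the 12 comparisons without reaching 2-fold in any, and in 2 of these, IM1 against M and IM5 against IM4, it did not pass with the GC offset.

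The order of the 9 groups by mean TPM was clear for some genes only. For *Wt1* and *Tcf21* 2 of 8 neighbouring pairs of groups overlapped in their libraries. For *Wt1* these were IM4 with iSLC and EpiSC with M, and for *Tcf21* IM1 with M and ESC with EpiSC. For *Gadd45g* 4 pairs overlapped, for *Lhx9*, *Emx2* and *Six4* 5 each, and for *Map3k4* 6.

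Other genes known from genital ridge formation, a list of 11, were read beside these. In IM3 against IM1 4 were higher and 2 lower, with a list median of 0.03 beside 0 for all genes. Higher were *Gata4*, a GATA factor needed for ridge thickening (1.60), its partner *Zfpm2* (1.47), *Nr2f2* (1.59) and *Nr2f1* (2.99). Lower were *Cited2*, a coactivator working with WT1 (-1.35), and *Osr1*, an early intermediate mesoderm gene (-1.76). *Gata4* stood at 340 ± 2.84 TPM in IM3 and 75.8 ± 7.26 in IM1. The log2 changes are of counts, while TPM also carries transcript length. In IM2 against IM3 *Nr2f2* was lower (-1.19) and *Osr1* higher (1.92), and in IM5 against IM4 *Nr2f2* (-1.38) and *Zfpm2* (-1.10) were lower and *Osr1* higher (2.33), with list medians of -0.11 and -0.16 beside 0. In iSLC against IM3 4 of 11 were higher and none lower, with a median of 0.91 beside 0. *Nr5a1* rose by 10.06 to 93.8 ± 6.55 TPM, and it is a virus-delivered gene, so endogenous and viral transcripts cannot be told apart in these counts. Before that, *Nr5a1* was at most 0.15 TPM in the IM libraries.

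**Figure D4:**
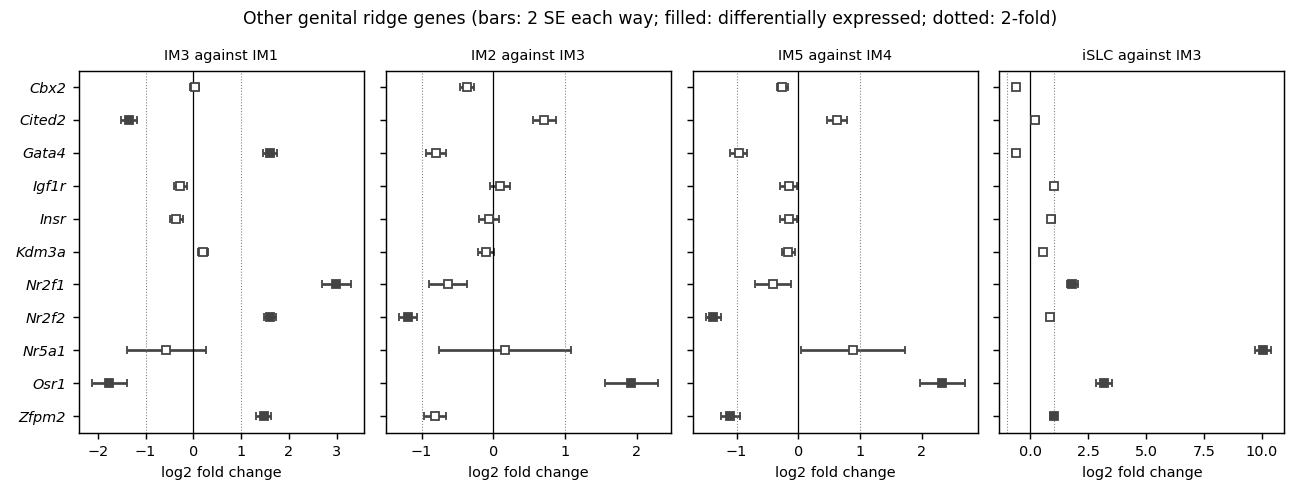
Log2 fold changes of 11 other genital ridge genes in 4 comparisons (each panel has its own axis range), with bars of 2 SE on each side, filled squares for DE genes and dotted lines at 2-fold. *Gata4*, *Zfpm2*, *Nr2f1* and *Nr2f2* are higher in IM3 than in IM1, and *Nr5a1*, *Osr1*, *Nr2f1* and *Zfpm2* are higher in iSLC than in IM3.

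Paralogs of the members were read as a list of 6, of which 5 were tested, with a median of 1.44 in iSLC against IM3 beside 0 for all genes. *Six5*, a paralog of *Six4*, rose there by 1.81 on the log2 scale and *Gadd45b*, a paralog of *Gadd45g*, by 1.44 (adjusted p = 2.93e-17 and 2.03e-11). *Lhx2*, the paralog of *Lhx9*, was DE in IM3 against IM1 (1.21) and in IM5 against IM4 (-1.19) and had a log2 change of 0.22 in iSLC against IM3. *Emx1* was under the low-count filter, at no more than 5 counts in an IM or iSLC library.

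The p38 cascade around GADD45G and MAP3K4 was read as a list of 9 genes, of which *Sry* was not tested, with at most 1 count in any IM or iSLC library, under the floor of 3 counts. None of the 8 genes tested was DE by edgeR in IM3 against IM1, IM2 against IM3 or IM5 against IM4, with medians of -0.02, 0.06 and 0.21 beside 0, although 7 of 8 had an unadjusted p under 0.05 in each. *Mapk14*, the main p38 kinase, differed by 0.20 on the log2 scale of counts in IM3 against IM1. *Map2k3*, a kinase just above p38, had log2 changes of -0.62, 0.63 and 0.63 in the same 3 comparisons (adjusted p = 4.3e-11, 7.56e-11 and 6.17e-11), the signs of *Gadd45g* but under 2-fold. By mean TPM *Map2k6*, also in the list, went the other way. It was at 7.94 in IM1, 10.15 in IM2, 13.96 in IM3, 13.76 in IM4 and 9.72 in IM5. *Gadd45a* had the signs of *Gadd45g* in these 3 comparisons, with log2 changes of -0.40, 0.72 and 0.84. *Gadd45a* rose by 1.13 in IM1 against M, beside the rise of 4.15 in *Gadd45g*. In iSLC against IM3 1 of 8 was DE, *Gadd45b*.

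Among 7 genes known to act downstream of the members, 6 were tested. In IM3 against IM1 3 were higher, *Zfpm2*, the WT1 target *Podxl* (1.11) and *Amhr2*, the anti-Müllerian hormone receptor (1.46), with a list median of 0.79. In iSLC against IM3 3 were higher, *Egfr*, *Zfpm2* and *Nr5a1*, and 1 lower, with a median of 0.51. *Nr5a1* was delivered by the virus, so its rise, which enters this count and median, was set by the design. *Podxl*, a sialoprotein of podocytes and mesothelium, fell by 4.22 (SE 0.0992, adjusted p = 9.52e-23) to 20.9 TPM, while *Wt1* itself remained at 116 TPM. *Egfr* rose by 1.09.

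Some markers of other cell types that express these genes differed between the same media. Of 4 epicardium markers 3 were higher in IM3 than in IM1, and all 4 were lower in IM2 than in IM3 and in IM5 than in IM4. Their summed level was 8.56 to 11.53 TPM in IM1, 13.86 to 15.23 in IM2, 47.02 to 56.93 in IM3, 32.97 to 34.78 in IM4 and 5.78 to 7.63 in IM5. *Tbx5* and *Tbx18*, which mark epicardium and lateral mesoderm, were at 24 and 12.3 TPM in IM3, and none of the 4 markers was at 0 there. Of 6 coelomic epithelium and mesothelium markers 2 were DE in these comparisons, *Upk3b* and *Upk1b*. Both were higher in IM3 than in IM1 and lower in IM2 than in IM3 and in IM5 than in IM4. *Msln* had the same signs below the read minimum, with log2 changes of 3.16, -1.29 and -1.16 (adjusted p = 8.04e-12, 1.04e-05 and 9.49e-05). *Upk3b* was at 215 ± 10.1 TPM in IM3 and 1.96 ± 1.23 in IM1. The keratins *Krt8* and *Krt18*, the most abundant of the 6, went the other way under 2-fold, with log2 changes of -0.77 and -0.76 in IM3 against IM1 (adjusted p = 1.03e-08 and 1.3e-10) and 0.46 for each in IM2 against IM3 (adjusted p = 4.52e-05 and 1.37e-06). The sum of the 6 was therefore 3107 to 3509 TPM in IM1, 2603 to 2875 in IM2, 2433 to 2580 in IM3, 2128 to 2438 in IM4 and 2092 to 2256 in IM5, and did not follow *Wt1*. The part of either cell type in the *Wt1* and *Tcf21* differences was not tested.

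Kidney markers divided. *Pax2* and *Pax8*, which define the nephric lineage, had group means of 0.01 to 0.22 TPM over the IM groups, and 4 of 6 intermediate mesoderm and kidney markers were lower in IM3 than in IM1. Of 3 podocyte markers, *Podxl* (1.11) and *Synpo*, an actin-associated protein (1.02), were higher in IM3 than in IM1, and none was lower. *Synpo* was at 53 TPM in IM3 and 54.8 in IM2, while *Nphs1*, the nephrin gene, was at 0.227 TPM in IM3. The sum of the 3 was 174.7 to 221.9 TPM in IM1, 248.6 to 279.3 in IM2 and 204.4 to 253.5 in IM5. It was 433.2 to 449.5 in IM3 and 432 to 451.9 in IM4. Most of this sum was *Podxl*, which is also found in mesothelium, with means of 168 TPM in IM1 and 388 in IM3. The part of podocytes in the *Wt1* difference was not tested. Of 6 neural markers 3 were higher in IM2 than in IM3 and in IM5 than in IM4, namely *Sox2*, *Sox3* and *Tubb3*, and their part in the *Gadd45g* difference was not tested. In iSLC 5 of 6 coelomic epithelium markers were lower than in IM3, their sum moving from 2433 to 2580 TPM down to 90.51 to 102.4. Of 6 Sertoli markers none was DE by edgeR between iSLC and IM3, but only *Sox9* had the reads for a call. The 3 at an unadjusted p under 0.05 were *Sox9*, *Dhh* and *Cst9*. *Dhh* was higher by 1.43 on the log2 scale (adjusted p = 5.71e-06) and *Cst9* lower by 1.48 (adjusted p = 0.00314), both under the read minimum. *Sox9* was lower by 0.68 (adjusted p = 2.88e-06), at 24.8 TPM in iSLC and 40 in IM3.

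Across the 9 group means of log2 CPM, the genes most like each member were found by Pearson correlation over the genes past the read minimum. For *Wt1* these were *Muc16*, a mesothelial mucin (r = 0.976), *Sfrp1* and *Atp2b4*, and for *Tcf21* *Epha7* (0.989), *Tgfb3* and *Ntsr1*. For *Lhx9* they were *Abca4* (0.978), *Tmem33* and *Racgap1*, and for *Emx2* *Gpx8* (0.991), *Gas1* and *Zfp251*. *Six4* was nearest to *Supv3l1* (0.997), *Dnaja3* and *Mrpl49*, *Gadd45g* to *Cracr2b* (0.984), *Pcdh12* and *Alas1*, and *Map3k4* to *Kmt5a* (0.97), *Elovl7* and *Rab35*. Among the members, the closest pairs were *Wt1* with *Tcf21* and *Emx2* with *Tcf21*, each at 0.89, and the most opposed was *Emx2* with *Six4* at -0.85. With 9 points that share libraries with every fold change above, these values are a description and carry no test.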

How the data were processed

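RNA of 27 libraries (9 groups of 3, grouped and numbered by the sample labels) was sequenced. Per the labels and the study's methods, the authors trimmed reads with Cutadapt 1.9.1, aligned them to GRCm38 with STAR 2.5.2a and ran RSEM 1.3.0. The expected counts deposited by the authors are RSEM estimates with no normalization, the TPM values deposited are scaled per effective length to a fixed sum, and the FPKM values deposited are scaled per length and library total. The other deposited columns, transcript lengths, served as an offset and a description. Symbols and coordinates came from GENCODE M21 (GRCm38), which matched 48349 of 48795 genes (99.09%, holding 99.96% of the counts).

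Counts were rounded, filtered with filterByExpr and tested in 1 model over 27 libraries with TMM and the quasi-likelihood test of edgeR 4.0.16 (R 4.3.3), with Benjamini-Hochberg adjustment over 20839 genes. On simulated counts for IM3 against IM1 (19778 genes, 200 changed 4-fold) it called 100% of changed genes and 0 others. All changed genes were above the read minimum. The check therefore does not cover genes as low as *Lhx9*, changes near 2-fold, or library traits that follow groups. DESeq2 1.42.0 was an alternative. The floor was 3 counts and covers counting error only. Replicates of a group differed by 3.63 to 53.8 times the sampling noise (chi-square per degree of freedom). The members, lists, comparisons and named genes were chosen with earlier results of these data known. Named are the 7 members, genes of their lists, and the 3 genes closest to each member over 9 groups. Alternatives were other size factors, a length offset, DESeq2, no low-count filter, only the groups compared, a replicate block, each library left out, and FPKM. Offsets for the GC trend and no read minimum were added after seeing the data. A few genes of the lists are not reported here.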

Additional observations from a re-analysis of the deposited data

How the results depend on the processing

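Of the counts of DE members, 206 of 207 alternatives stayed within 1.5 times. Without the read minimum, each comparison that had a DE member gained another. This was *Emx2* in EpiSC against ESC and in M against EpiSC, and *Lhx9* in the rest. The count moved from 1 to 2 in EpiSC against ESC, past 1.5 times, and for example from 3 to 4 in IM3 against IM1, within it. Single fold changes were followed for 78 of the 84 of the 7 genes in 12 comparisons. The other 6, chosen after seeing the data as near 0 or from very few counts, are not reported and were left out (*Tcf21* and *Map3k4* in EpiSC against ESC, *Map3k4* and *Lhx9* in M against EpiSC, *Emx2* in IM1 against M, and the *Gadd45g* interaction). Of those followed, 14 alternatives lost a call and 6 gained one. Those lost were *Emx2* in IM3 against M and, under the added GC offset, *Gadd45g* in 3 comparisons. Those gained were *Emx2* in IM3 against IM1 and iSLC against IM3, and *Lhx9*, whose read minimum is then set by fewer groups, when only the groups compared were fitted. Among those followed, direction turned only for values near 0. In IM4 against IM3 *Emx2* was -0.0251 with the length offset, -0.0137 with the replicate block and that offset and -0.0771 to 0.171 without single libraries, and *Map3k4* was -0.0131 with DESeq2's size factors, -0.0133 with its Wald test, -0.00527 with no low-count filter, -0.00492 with only the groups compared and -0.0235 to 0.0195 without single libraries. *Gadd45g* in iSLC against IM3 ranged from -0.129 to 0.0409 without single libraries and was -0.509 with the GC offset. The causes were not tested. Deviations of same-numbered libraries correlated by 0.002 on average over all pairs of groups. The means of single pairs ran from -0.113 (ESC with IM4) to 0.079 (IM1 with IM4). The average shows no pairing common to the groups, but it cannot exclude pairing between some of them. With the replicate block alone the count of DE members was 3 in IM3 against IM1, as without it, and no member's call changed. With FPKM in place of TPM 2 groups changed rank for *Six4* and 6 for *Map3k4*. Low counts limit *Lhx9*, *Emx2* and early *Tcf21*. *Tcf21* could not be fitted in EpiSC against ESC and M against EpiSC with only those groups.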
